A study of Saccharomyces cerevisiae with 2 samples.

Results

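The CCT chaperonin (also called TRiC) is the chaperone ring of the eukaryotic cytosol, and its 8 subunit genes were examined in budding yeast (Saccharomyces cerevisiae) that carried a mutant histone H3. The members were the genes TCP1, CCT2, CCT3, CCT4, CCT5, CCT6, CCT7 and CCT8, taken wherever a probe set was annotated to a single gene of that symbol. All 8 were found, each with 1 probe set, among 5656 named genes on the array. No probe set shared by several genes touched a member.

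Both arrays came from a single group, a mutant with arginine in place of lysines K4, K36 and K79 of histone H3, taken 12 h after a change of sugar. Per the series' design text, the cells were grown in galactose and moved to glucose to repress a wild-type H3 gene, so that the mutant H3 was left as the source of the protein. RNA from 2 replicate cultures was read on an Affymetrix yeast array each. The labels give no further genotype of the strain, and whether the wild-type H3 gene was shut off was not checked here. Wild-type H3 cultures and the other times were not analysed here, so no effect of the mutation can be given. The values below are MAS5 signal, a linear brightness per probe set in arbitrary units, and errors are SD over the 2 arrays (n = 2).

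CCT is built of a pair of stacked rings, and each ring holds 1 copy of each of the 8 related subunits. It binds unfolded protein in its central cavity and closes over it as it hydrolyses ATP. Actin and the tubulins are its best known substrates, along with several WD-repeat proteins, and in yeast each of the 8 genes is essential. Prefoldin, a smaller complex, hands nascent actin and tubulin chains to it. Since the ring uses its subunits in equal number, the question put to these data was whether the 8 genes gave even signal on both arrays.

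The CCT genes were bright, and their median signal was the same on both arrays to within 1 unit. The median over the 8 genes was 204 on replicate 1 and 205 on replicate 2, or 204.6 ± 0.684 (SD, n = 2), against a median of 42.0 and 41.4 over all named genes. Even the dimmest member, CCT7, was brighter than 73.9% of all genes, and the brightest, TCP1, was brighter than 90.2%. The signals lay far above the 9 opposite-strand E. coli control probe sets, which read at most 3.39 and 4.07. Each probe set hybridises with its own efficiency, so a brighter gene is not shown here to have more RNA than a dimmer one. In a culture, fewer cells that express a gene and less RNA per cell cannot be told apart.

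The signals of the 8 genes were not fully even. TCP1, the alpha subunit and the founding member of the family, read 247 on replicate 1 and 252 on replicate 2 (250 ± 3.60), the top value on each array. CCT2, the beta subunit, read 223 and 212 (217 ± 7.58). CCT5, the epsilon subunit, read 209 and 218 (213 ± 6.81). These were the members nearest to TCP1 in mean signal, and the ranges of CCT2 and CCT5 over the arrays overlapped.

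CCT8, the theta subunit, read 200 and 213 (206 ± 9.61). CCT6, the zeta subunit, read 209 and 198 (203 ± 7.41). CCT4, the delta subunit, whose older name ANC2 comes from a genetic screen for genes that interact with actin, read 181 and 170 (175 ± 7.78). CCT4 was the lowest of the 6 brightest members, which ran from 181 to 247 on replicate 1 and from 170 to 252 on replicate 2. No wide step set these 6 apart, since CCT6 had 1.16 times the mean signal of CCT4, and CCT4 1.19 times that of CCT3.

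CCT3, the gamma subunit, read 148 and 147 (147 ± 0.595), the smallest spread between arrays among the members. CCT7, the eta subunit, read 98.9 and 81.8 (90.4 ± 12.1), the largest spread. CCT7 was the dimmest member on both arrays. The next one up, CCT3, had 1.49 times its signal on replicate 1 and 1.79 times on replicate 2.

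**Figure D1:**
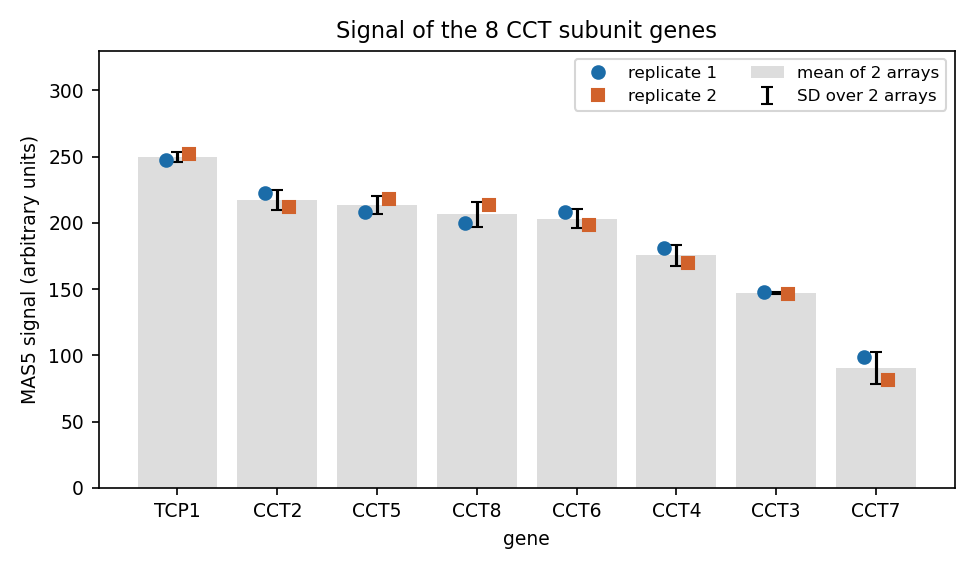
MAS5 signal (arbitrary units, vertical axis from 0) of each CCT gene, ordered by mean, with the 2 arrays as points, their mean as a grey bar and the SD as an error bar. TCP1 is the brightest at 250 ± 3.60, the middle genes lie close together, and CCT7 stands lowest at 90.4 ± 12.1.

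The order of the members was partly the same on both arrays. TCP1 was first, CCT4 sixth, CCT3 seventh and CCT7 eighth on each, so 4 of the 8 kept their place. In order of mean signal, CCT2, CCT5, CCT8 and CCT6 filled the places between TCP1 and CCT4. Each of these 4 overlapped in range with its neighbour in that order, and their mean signals differed by 1.02, 1.03 and 1.02 times from each to the next. Neighbours among them could not be ordered beyond the spread between the arrays. The ranges of CCT2 (212 to 223) and CCT6 (198 to 209), which were not neighbours, did not overlap. The other 4 of the 7 steps, TCP1 to CCT2, CCT6 to CCT4, CCT4 to CCT3 and CCT3 to CCT7, had ranges that did not overlap. The steps were 1.15, 1.16, 1.19 and 1.63 times. Each range rests on 2 values, so a lack of overlap is a description and not a test of the order.

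As a single measure of evenness, the brightest member had 2.50 times the signal of the dimmest on replicate 1 and 3.09 times on replicate 2. The SD of log2 signal over the 8 genes was 0.42 and 0.51. Both figures rested largely on CCT7. Among the other 7 genes the brightest had 1.68 and 1.72 times the signal of the dimmest, and the SD of their mean log2 signals was 0.25, against 0.47 with CCT7. Leaving CCT7 out was chosen after its values were seen.

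The 8 genes have similar lengths. Their coding lengths in RefSeq's R64 table run from 1584 bp for CCT2 to 1707 bp for CCT8, a ratio of 1.08. CCT7, at 1653 bp, lies inside that range. Divided by coding length, TCP1 gave a signal of 147 and 150 per kb and CCT7 59.9 and 49.5 per kb, and the brightest was 2.46 and 3.04 times the dimmest on that scale. How length acts on probe set signal was not tested.

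The subunits differ in how they use ATP. Work on yeast CCT places TCP1, CCT2, CCT4 and CCT5, which bind ATP more tightly, on one side of the ring, and CCT3, CCT6, CCT7 and CCT8 on the other. The first side had a median signal of 216 and 215 (215 ± 0.385) and the second 174 and 172 (173 ± 0.839). The sides overlapped on both arrays, with 181 to 247 against 98.9 to 209 on replicate 1 and 170 to 252 against 81.8 to 213 on replicate 2. This grouping was chosen after the values were seen and was not tested.

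Next, each member was compared between the cultures by its log2 ratio of replicate 2 to replicate 1. At a fixed size of 1.2-fold, 1 of the 8 members, CCT7, was lower on replicate 2 and 0 were higher. A filter removed the dim genes (those under the 25th percentile of mean log2 signal), and among the 4242 genes kept 10.4% passed 1.2-fold in either direction, 6.93% lower and 3.49% higher, so 1 of 8 is near the background. All 8 members passed that filter, which lay at a signal of 19.2. With 1 array per culture there is no p-value for any of these differences.

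CCT7 had a log2 ratio of -0.28, a 1.21-fold difference, and 6.46% of the kept genes had a lower ratio. It lay just past the limit. With each array centred on its median its log2 ratio was -0.26, with quantile normalisation -0.25 and with a pseudocount of 10 -0.25, all short of the 0.263 that 1.2-fold amounts to. In each of these settings 0 of 8 members passed, against 10%, 9.78% and 6.53% of kept genes in that order.

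The other 7 members differed by less than 1.1-fold, a size that 33.8% of kept genes passed. CCT4, CCT6 and CCT2 had log2 ratios of -0.091, -0.074 and -0.071. CCT3 had -0.0083, a 1.01-fold difference. TCP1 had 0.029, CCT5 0.065 and CCT8 0.095. At 1.5-fold, which 1.56% of kept genes passed, no member was called.

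The members had log2 ratios of both signs. There were 5 with a lower and 3 with a higher signal on replicate 2, and their median log2 ratio was -0.040, against -0.023 for all kept genes. The split became 4 and 4 with centring, with quantile normalisation and with scaling on the Bacillus poly-A controls, since CCT3 lies close to 0, and the median became -0.020, -0.0068 and -0.030. Of the 8, 4 lay below that median of kept genes. Between arrays the SD of a member's log2 signal was 0.082 when pooled over the 8 genes.

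**Figure D2:**
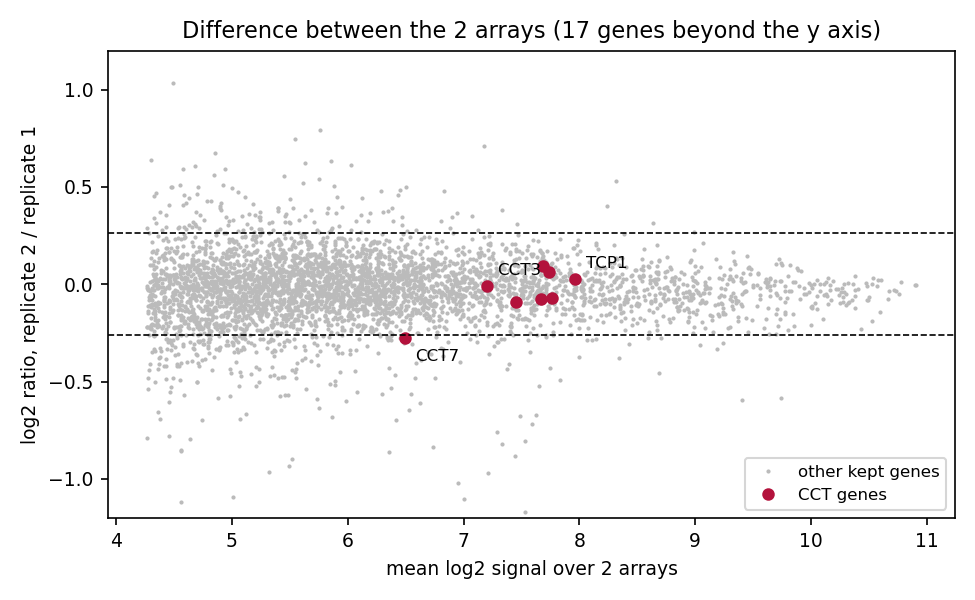
Log2 ratio of replicate 2 to replicate 1 (vertical axis) against mean log2 signal over both arrays (horizontal axis) for the 4242 kept genes in grey and the 8 CCT genes in red, with dashed lines at 1.2-fold; 17 genes lie beyond the vertical axis. CCT7, at -0.28, is the member just below the lower line, and the others lie between -0.091 and 0.095.

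The members are spread over few chromosomes. By their systematic names, CCT3, CCT5, CCT7 and CCT8 lie on chromosome 10, TCP1, CCT4 and CCT6 on chromosome 4, and CCT2 on chromosome 9. CCT3 (YJL014W) and CCT8 (YJL008C) are near neighbours, with 4 annotated genes between them in the RefSeq R64 table. Their log2 ratios were -0.0083 and 0.095, and their mean signals 147 and 206.

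Each member was also set beside the kept probe sets within 10 numbers of its own. This check was added after the data were seen. CCT7 (number 11136) lay below every one of its 15 neighbours, whose log2 ratios ran from -0.21 to 0.17 with a median of -0.024. It was already known as the member with the lowest ratio, and 6.46% of all kept genes had a lower one. A place below 15 neighbours is therefore not shown to be unusual for such a ratio. What the probe set numbers stand for on the array was not examined. For TCP1 (number 6269), the 13 neighbours reached down to -1.22 for COQ4, a gene of ubiquinone synthesis, which read 53.2 and 22.8, while TCP1 itself had 0.029.

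The neighbours of CCT6 (number 6290) ran from -0.22 to 0.062 and those of CCT4 (number 6632) from -0.31 to 0.22. Both members lay inside those ranges. CCT2, CCT3, CCT5 and CCT8 also lay within the range of their neighbours, whose medians were -0.17, -0.087, 0.0082 and 0.048.

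**Figure D3:**
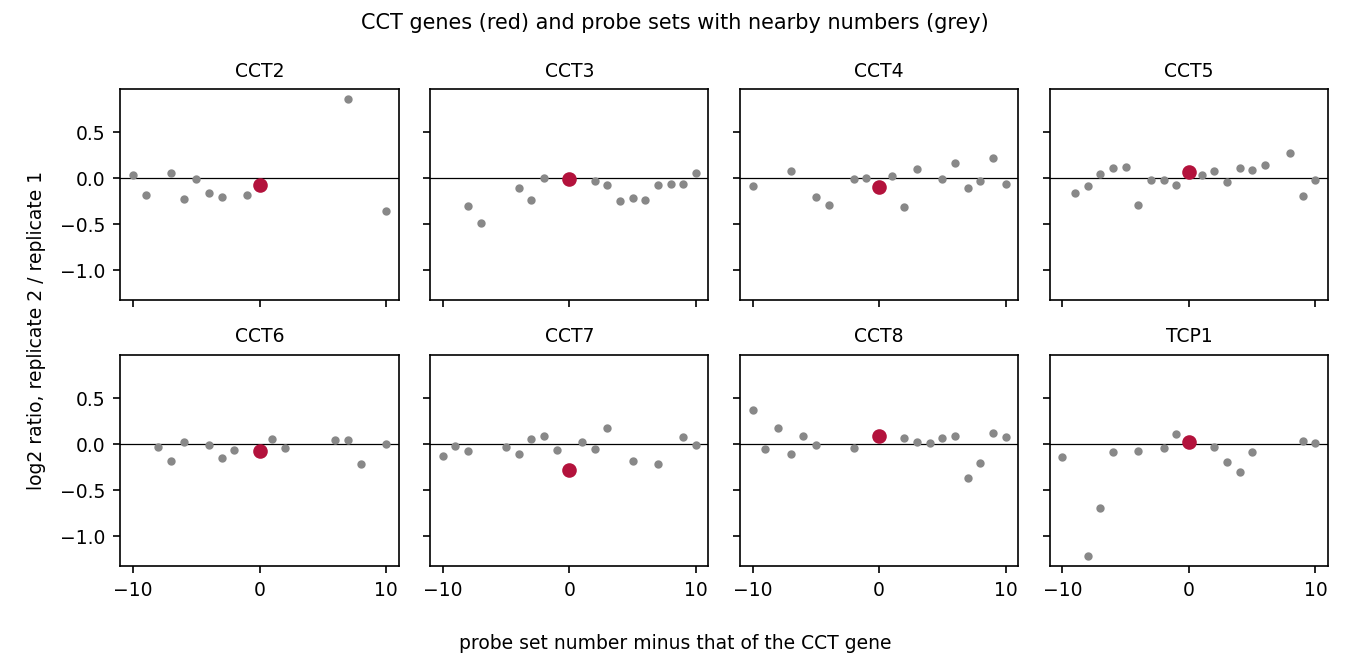
Log2 ratio of replicate 2 to replicate 1 (vertical axis) of each CCT gene (red) and of the kept probe sets within 10 numbers of it (grey), against the difference in probe set number (horizontal axis). CCT7, already known as the member with the lowest ratio, lies below all 15 grey points of its panel. TCP1 lies at 0.029 in a panel that reaches down to -1.22.

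For comparison, the same measures were taken for the subunit genes of 4 other assemblies that hold 1 or a fixed few copies of each subunit. These were the 20S proteasome core, the Arp2/3 complex that nucleates branched actin filaments, the exocyst that tethers secretory vesicles, and prefoldin. Of the 5 complexes, CCT had the smallest SD of log2 signal among its genes on both arrays. It was 0.42 and 0.51 for CCT, 0.66 and 0.70 for the 14 genes of the 20S core, 0.71 and 0.75 for the 6 of prefoldin, 0.75 and 0.84 for the 7 of Arp2/3, and 1.01 and 1.13 for the 8 of the exocyst. Over all named genes it was 1.91 and 1.93. The gaps and part of the order depended on the processing. With a pseudocount of 10 the SD of mean log2 signals was 0.43 for CCT, 0.60 for prefoldin and 0.64 for the 20S core. It was then 0.75 for Arp2/3 and 0.78 for the exocyst, against 0.80 and 1.07 without a pseudocount. The order of the complexes by this measure has no test, and with 1 or a few probe sets per gene the part of hybridisation in it was not tested.

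The range from dimmest to brightest gene also differed among these complexes. In the 20S core the brightest gene, PUP3, a beta subunit, read 550 and 518, and the dimmest, the alpha subunit gene PUP2, read 105 and 97.7, a ratio of 5.26 and 5.30. In Arp2/3 the ratio was 4.62 and 5.28, in prefoldin 2.90 and 3.32 and in the exocyst 7.13 and 9.54. Prefoldin was thus near CCT by this range, 2.90 and 3.32 against 2.50 and 3.09. Longer lists reach farther by their length alone, and 3 of the 8 exocyst genes lay under the signal filter. From the dimmest gene to the next one up, mean signals stepped by 1.63 times in CCT (CCT7 to CCT3), 1.74 in Arp2/3 (ARC35 to ARC19), 1.52 in the exocyst (EXO70 to EXO84), 1.15 in the 20S core (PUP2 to PRE3) and 1.05 in prefoldin (PFD1 to GIM4).

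**Figure D4:**
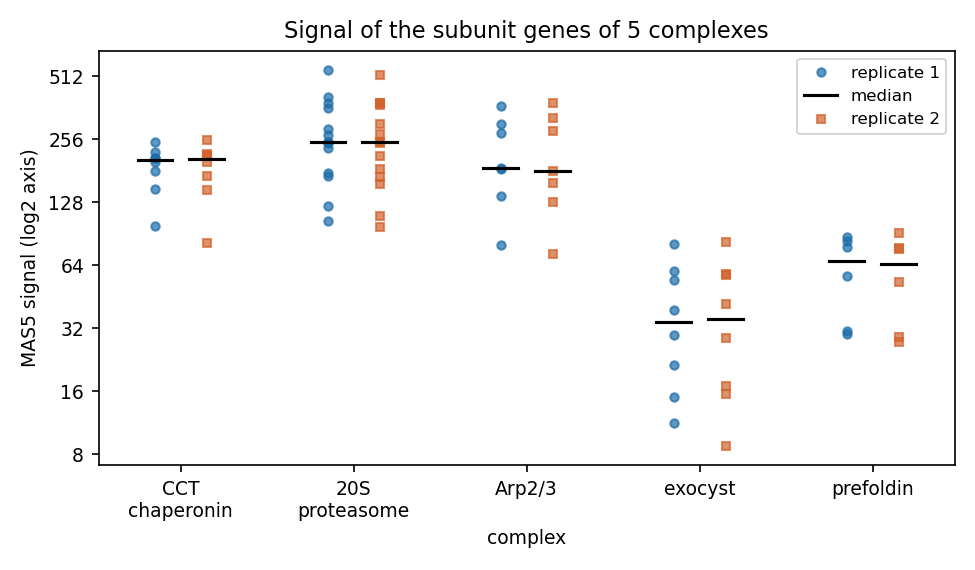
MAS5 signal (log2 axis) of the subunit genes of 5 complexes, with a point per gene and array and a black line at each median. The CCT genes lie between 81.8 and 252 around medians of 204 and 205, with CCT7 as the lowest point on each array.

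Genes that work with CCT were measured on the same arrays. Prefoldin, which delivers its substrates, had a median of 67.3 and 65.0 over 6 genes, with values from 27.5 to 91.3 over both arrays. GIM3 read 86.9 and 91.3, GIM5 83.5 and 77.4, PAC10 78.0 and 76.7 and YKE2 56.6 and 53.4. GIM4 read 31.0 and 29.1, and PFD1 29.9 and 27.5. On replicate 2, 5 of the 6 were lower than on replicate 1, by at most 0.12 on the log2 scale. Most kept genes were lower too, since their median log2 ratio was -0.023 and 55.0% of them lay below -0.0083. In either direction 0 of 6 passed 1.2-fold, against 10.4% of the kept genes, so this count is near the background.

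PLP2, a phosducin-like cofactor of CCT, read 102 and 91.8, a log2 ratio of -0.15. The substrate genes spanned a wide range. The actin gene ACT1 read 1232 and 1187, the alpha-tubulin genes TUB1 and TUB3 450 and 451, and 279 and 266, and the beta-tubulin gene TUB2 373 and 347. The anaphase activators CDC20 and CDH1, WD-repeat substrates, read 56.4 and 55.4, and 15.1 and 14.5, and the phosphatase subunit gene CDC55 32.3 and 34.6.

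None of the 6 substrate genes that passed the signal filter differed by 1.2-fold between the arrays, near the background of 10.4% of kept genes. Their log2 ratios lay between -0.10 and 0.098. CDH1 was under the filter, with a ratio of -0.057. The tubulin cofactors, which act on tubulin after its release from CCT, were dim apart from RBL2, at 111 and 104. The other 5, CIN1, CIN2, CIN4, PAC2 and ALF1, read 6.79 to 16.7 and lay under the filter. PAC2, at 7.10 and 9.57, had the largest log2 ratio of the list, 0.43.

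The chaperonin of the mitochondrial matrix is related to CCT but is built from 1 kind of subunit, Hsp60, with Hsp10 as its lid. HSP60 read 924 and 974 (949 ± 35.0) and HSP10 394 and 421 (407 ± 18.6). Both were slightly higher on replicate 2, with log2 ratios of 0.075 and 0.093. Neither passed 1.2-fold, which 10.4% of kept genes did. Signal of HSP60 is not set against that of the CCT genes as an amount, since the probe sets differ.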

How the data were processed

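The deposited intensity values are MAS5 signal per probe set, on a linear scale, which the authors made with MAS5 (submitters' processing notes). Its version, settings and scaling target were not stated in the sources used here. Of 9335 probe sets per array, those at 0 (29 and 26) were left out; the medians were 28.4 and 27.5.

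From these, probe sets of 1 gene (6504) took their names from GEO's platform annotation, matched on gene identifier to RefSeq's R64 table, and log2 signals were averaged per gene. Differences are log2 ratios of replicate 2 to replicate 1, counted at 1.2-fold among the 4242 genes at or above the 25th percentile of mean log2 signal. One group of 2 arrays allows no test between groups. Steps were tested on simulated data with less spread between arrays than here. That checked the code and not the error rate of the 1.2-fold calls. The number of arrays limits the precision.

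The members and lists were chosen with earlier results of these data known. All 8 members were to be named, and any gene of the lists could be. No gene was named for likeness of pattern, since 2 arrays hold 1 difference per gene. COQ4 was named after its value was seen. Sequences were not analysed here. Alternatives were quantile normalisation, centring, a pseudocount of 10, plain or brightest probe sets, either array alone, other filters and other folds. Python 3.11.15, numpy 2.4.6, pandas 2.3.3 and matplotlib 3.10.9 were used.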

Additional observations from a re-analysis of the deposited data

How the results depend on the processing

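The median CCT signal ran from 204.1 to 205.1 under all alternatives run on it, and these ends came with either array alone. The SD of log2 signal over the 8 genes was 0.421 and 0.512 with either array alone, 0.434 with a pseudocount of 10, 0.460 per kb of coding length and 0.245 without CCT7, which with the coding length was chosen after seeing the data. The count of members past 1.2-fold was 1 and became 0 with quantile normalisation, with centring and with a pseudocount of 10, where 9.78%, 10% and 6.53% of kept genes passed; at 1.5-fold it was also 0. The count stayed 1 with scaling on the Bacillus poly-A controls (added after seeing the data), where 10.3% of kept genes passed. It was also 1 with plain or brightest probe sets (10.3% and 10.1% passing). So it was with no filter or the 50th percentile (16.8% and 7.43%) and at 1.1-fold (33.8%). These last settings could not lower the count. Each member has 1 probe set, the filters were not applied to the members, and 1.1-fold is the looser limit. The median log2 ratio of the members went from -0.040 to -0.0068 with quantile normalisation and -0.020 with centring. CCT3 turned from -0.0083 to 0.023 with quantile normalisation, 0.012 with centring and 0.0011 on the poly-A controls. The SD of the 20S core was 0.68, 0.60 with plain or brightest probe sets, since the 3 PRE3 probe sets disagree, and 0.65 without PRE5 and PRE3 (added after seeing the data); PRE5 read 249 and 156. In all, 135 of 151 recomputed values were labelled the same and 16 moved. The limit was the spread of the main values, or a factor of 1.5 for the count of members. For the members' ratios that spread was their SD over the 8 genes, 0.117, so CCT3 was labelled the same although its sign turned. Many of the 135 could not change, such as the members' ratios with plain or brightest probe sets. No paired analysis was possible because both arrays belong to 1 group.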
